A study of Rattus norvegicus with 9 samples.

Results

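Liver libraries that carry the tissue label fatty liver were set together against libraries of normal liver. They were 6 of the 9 libraries in the series, and the other 3 were normal diet controls. The 6 were chosen by that label alone, and gene values had no part in the choice. A gene was counted as having no overlap when its level in all 6 fatty liver libraries lay above, or below, its level in all 3 normal ones. Of the 15565 genes in both deposited count tables, 12041 passed a filter on low counts and were tested, and 388 of those had no overlap.

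The rats were male, of the strain labelled SD. The normal diet group (3 libraries) ate a normal diet. The high-fat diet group (3 libraries) ate a high-fat diet for 8 weeks, given to induce non-alcoholic fatty liver disease. The SCL-treated group (3 libraries) received SCL, the labels' short form of the plant Smilax china L. The series text speaks of an SCS group instead, which is taken here to be the same one. The labels used here give neither its dose nor the diet of those rats, so the 6 pooled libraries share a tissue label and may not share a diet. The labels number the libraries of a group but do not tie each to its own rat, and a p-value here reflects the spread among these libraries, which may be technical. Hepatocyte genes were abundant on both sides: Alb, the gene of serum albumin, had 484758 to 1797664 reads in each fatty liver library and at least 1583779 in each normal one.

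The liver makes cholesterol from acetyl-CoA. A first arm of the pathway builds mevalonate and then farnesyl diphosphate, and a second arm joins farnesyl units into squalene, closes the ring to lanosterol and trims lanosterol to cholesterol. The enzymes are under common control: when sterols are scarce in the membrane of the endoplasmic reticulum, the factor encoded by Srebf2 is carried to the Golgi, cut and sent to the nucleus, and when sterols are plentiful the Insig proteins hold it back. Fatty liver is an excess of triglyceride in hepatocytes, set by uptake, synthesis, oxidation and export of fatty acids, each with its own enzymes.

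The region upstream of the start site is shown for 4 of the 5 genes called between the sides, because these genes stood out by their low level in every fatty liver library. Each line holds the 250 bases before the annotated start, from RefSeq (build GRCr8). Tm7sf2 lies at chr1:212789542-212789791 on the minus strand, Cyp51 at chr4:30991443-30991692 on the plus strand, Msmo1 at chr16:29746863-29747112 on the plus strand and Idi1 at chr17:66547525-66547774 on the minus strand. Capitals mark the letters CCAAT or, for a match on the other strand, ATTGG, the short box bound by the factor NF-Y.
Tm7sf2: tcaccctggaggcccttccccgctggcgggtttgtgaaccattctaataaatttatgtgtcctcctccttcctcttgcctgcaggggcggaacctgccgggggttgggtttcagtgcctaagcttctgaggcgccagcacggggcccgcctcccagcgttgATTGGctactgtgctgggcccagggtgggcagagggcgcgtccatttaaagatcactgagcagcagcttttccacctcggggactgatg
Cyp51: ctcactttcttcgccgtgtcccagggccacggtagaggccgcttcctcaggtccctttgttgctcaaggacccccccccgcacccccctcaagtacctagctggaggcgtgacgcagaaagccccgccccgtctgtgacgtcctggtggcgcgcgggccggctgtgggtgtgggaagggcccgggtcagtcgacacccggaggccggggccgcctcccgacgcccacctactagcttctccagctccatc
Msmo1: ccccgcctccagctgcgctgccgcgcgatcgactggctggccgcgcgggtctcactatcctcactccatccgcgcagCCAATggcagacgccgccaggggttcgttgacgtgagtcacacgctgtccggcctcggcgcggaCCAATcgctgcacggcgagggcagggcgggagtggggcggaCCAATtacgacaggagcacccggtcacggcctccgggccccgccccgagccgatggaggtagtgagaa
Idi1: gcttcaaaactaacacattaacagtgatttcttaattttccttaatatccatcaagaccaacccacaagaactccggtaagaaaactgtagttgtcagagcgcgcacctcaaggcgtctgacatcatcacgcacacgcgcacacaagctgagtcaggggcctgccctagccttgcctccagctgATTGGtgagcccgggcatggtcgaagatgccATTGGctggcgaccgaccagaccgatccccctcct
Msmo1 had 3 matches, Idi1 had 2, Tm7sf2 had 1 and Cyp51 had 0. Of the 20 cholesterol synthesis enzymes listed, 15 had a window, and Sqle, Pmvk and Fdft1 were among the 5 not matched to one. At least 1 CCAAT lay in 12 of the 15 windows (80%), against 36.8% of the 9534 tested genes with a window and 36.1% of all 27457 genes with one. The sterol response letters TCACNCCAC, also searched on both strands, were in 0 of the 15 windows, in 1.05% of the tested genes and in 1.09% of all genes. With so low a share over all genes, 0 of 15 windows cannot show whether these enzymes lack sterol response sites, and near matches were not searched. A match describes letters in this window only.

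The comparison asked which genes separate liver called fatty from normal liver, whatever the treatment. Cholesterol synthesis enzymes fell: Tm7sf2, Cyp51, Msmo1, Idi1 and Sqle were lower in all 6 fatty liver libraries, by 5.39-fold to 12.1-fold in the ratio of mean levels, and they were the only genes past an adjusted p of 0.05 in edgeR's quasi-likelihood test (5 lower, 0.0415% of genes tested). No gene passed in the higher direction (0%), where 553 genes (4.59%) had an unadjusted p under 0.05 against 324 (2.69%) in the lower direction. On the same counts DESeq2 put 48 genes past its threshold as higher and 30 as lower, and limma-voom with a quality weight per library put 480 and 628. By overlap, 181 genes (1.50%) lay above and 207 (1.72%) below in all 6 fatty liver libraries. The median log2 fold change over all genes tested was 0.04, and it was -0.11 when libraries were scaled by their totals alone.

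**Figure D1:**
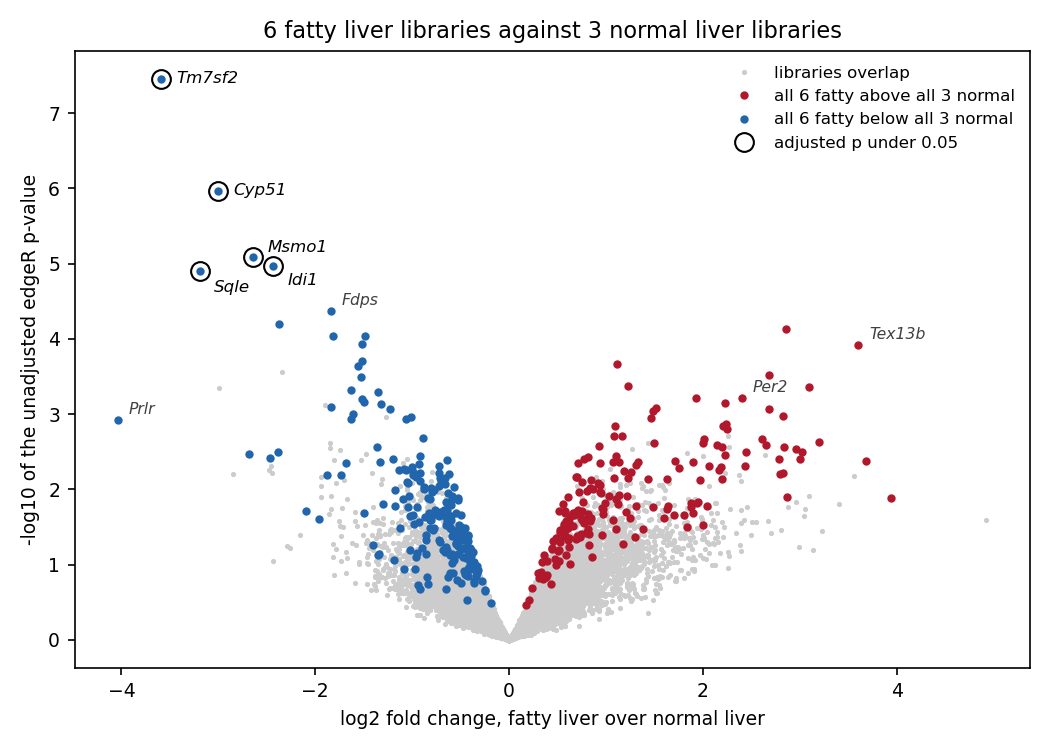
Each point is 1 of 12041 genes, by its log2 fold change of the 6 fatty over the 3 normal liver libraries (x axis) and -log10 of the unadjusted edgeR p-value (y axis). Red and blue points are the 181 and 207 genes with no overlap above and below, and circles mark the 5 genes past the adjusted threshold, which all lie on the lower side.

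Counts of genes with no overlap changed with the libraries kept. The distance between the nearest libraries of the 2 sides, here called the gap and measured on log2(CPM + 1), had a median of 0.10 among the 181 higher genes and 0.11 among the 207 lower genes. It reached 1 for 2 higher genes, Tex13b and Ubd, and for 3 lower genes, Tm7sf2, Cyp51 and Sqle. Normal diet replicate 3 was the nearest normal library for 51.6% of the 388 genes, and high-fat diet replicate 1 was the nearest fatty library for 34.3%. With a library left out, fewer libraries have to be on one side, so a rise in the number with no overlap is built in. Leaving out normal diet replicate 3 gave 1545 genes with no overlap and 9 called, and leaving out high-fat diet replicate 1 gave 1184 and 25. Leaving out normal diet replicate 1 or 2 gave 648 or 591 with no overlap, and 3 or 2 called. Among the other fatty liver libraries, 2 were called without high-fat diet replicate 2, high-fat diet replicate 3 or SCL-treated replicate 1, 3 without SCL-treated replicate 2 and 4 without SCL-treated replicate 3, with 436 to 567 genes with no overlap.

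Depth was 12413774 to 15521648 reads a library, with 13239 to 14409 genes detected. Transcripts of the mitochondrial genome took 3.85% to 11.2% of reads in normal libraries and 4.90% to 49.0% in fatty ones, with over 40% in high-fat diet replicate 3 and SCL-treated replicate 2. The mean share was 22.5% ± 19.3 (SD, n = 6) in fatty and 6.54% ± 4.01 (SD, n = 3) in normal liver (two-sided exact permutation p = 0.143). The smallest one-sided p that 6 against 3 allows in this test is 0.0119, and the smallest two-sided p is larger. Of the 13 mitochondrial transcripts tested, 0 had no overlap and 10 had an unadjusted p under 0.05, all higher in fatty liver, with a median log2 fold change of 2.12. The part of this share in the results was not tested beyond the fits named beside them. Without the 2 libraries over 40%, where fewer libraries have to be on one side, 756 genes had no overlap. In that edgeR fit 1 gene, Tm7sf2, was called (adjusted p = 0.0076).

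**Figure D2:**
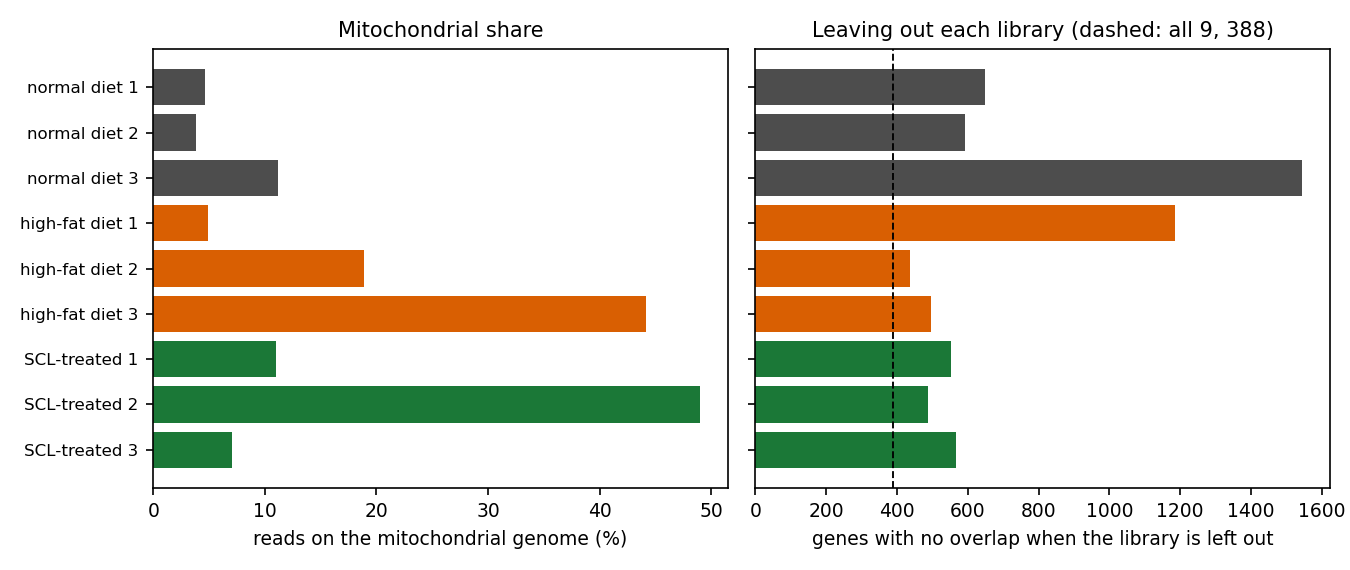
Left, the percentage of each library's reads on the mitochondrial genome; right, the number of genes with no overlap when that library is left out, with a dashed line at the 388 found with all 9. High-fat diet replicate 3 (44.1%) and SCL-treated replicate 2 (49.0%) have the largest shares, while the number of genes with no overlap moves most without normal diet replicate 3 (1545) or high-fat diet replicate 1 (1184). With any library left out, fewer have to be on one side, so a rise is built in.

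The reductase gene Tm7sf2, which acts on the sterol ring just after lanosterol demethylation, was the clearest of the 388. It stood at 100.8, 147.4 and 84.4 CPM (counts scaled to library size by TMM) in normal liver, and its 6 fatty liver values ran from 5.30 through a median of 9.36 to 12.9 CPM. The lowest normal library was over any fatty one by a gap of 2.62. The mean was 110.9 ± 32.7 CPM (SD, n = 3) in normal and 9.19 ± 2.75 CPM (SD, n = 6) in fatty liver, a log2 fold change of -3.59 (SE 0.29, edgeR adjusted p = 0.00042). The call held in each of the 9 fits that left out 1 library, with adjusted p from 0.000664 to 0.00399.

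Cyp51, the lanosterol demethylase, had 340.3, 209.1 and 126.0 CPM in normal liver against 15.1 to 39.7 CPM (median 29.1) in fatty liver. The gap of 1.64 again put all 6 libraries under the lowest normal one. Its log2 fold change was -2.999 (SE 0.33, edgeR adjusted p = 0.0066), and it stayed called in all 9 leave-one-out fits (adjusted p 0.00228 to 0.0409). Without the 2 libraries over 40% mitochondrial it had an adjusted p of 0.0523.

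Sqle, the squalene epoxidase that starts the second arm's oxygen-dependent steps, had 58.0, 30.3 and 18.4 CPM in normal liver and 2.04 to 8.44 CPM (median 3.25) in fatty liver. The highest fatty value, in SCL-treated replicate 2, was still under the lowest normal value. The log2 fold change was -3.19 (SE 0.45, edgeR adjusted p = 0.031).

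Msmo1, the methylsterol oxidase that removes methyl groups after Cyp51 and Tm7sf2, had 102.2, 68.2 and 36.0 CPM in normal liver and 6.17 to 19.2 CPM (median 10.2) in fatty liver. Idi1, the isomerase that makes the allylic building block in the first arm, had 64.9, 45.5 and 18.6 CPM against 5.59 to 10.3 CPM (median 8.18). In both genes normal diet replicate 3 was the lowest normal library. Their log2 fold changes were -2.64 (SE 0.35) and -2.43 (SE 0.33), each with an edgeR adjusted p of 0.031. Leaving out 1 library at a time kept the call of Msmo1 and of Sqle in 3 of 9 fits and of Idi1 in 2, and the adjusted p reached 0.232, while the log2 fold changes of these 3 genes stayed between -3.56 and -2.01. With the log2 mitochondrial share as covariate, Msmo1 and Idi1 had an edgeR adjusted p of 0.0897 and 0.131.

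**Figure D3:**
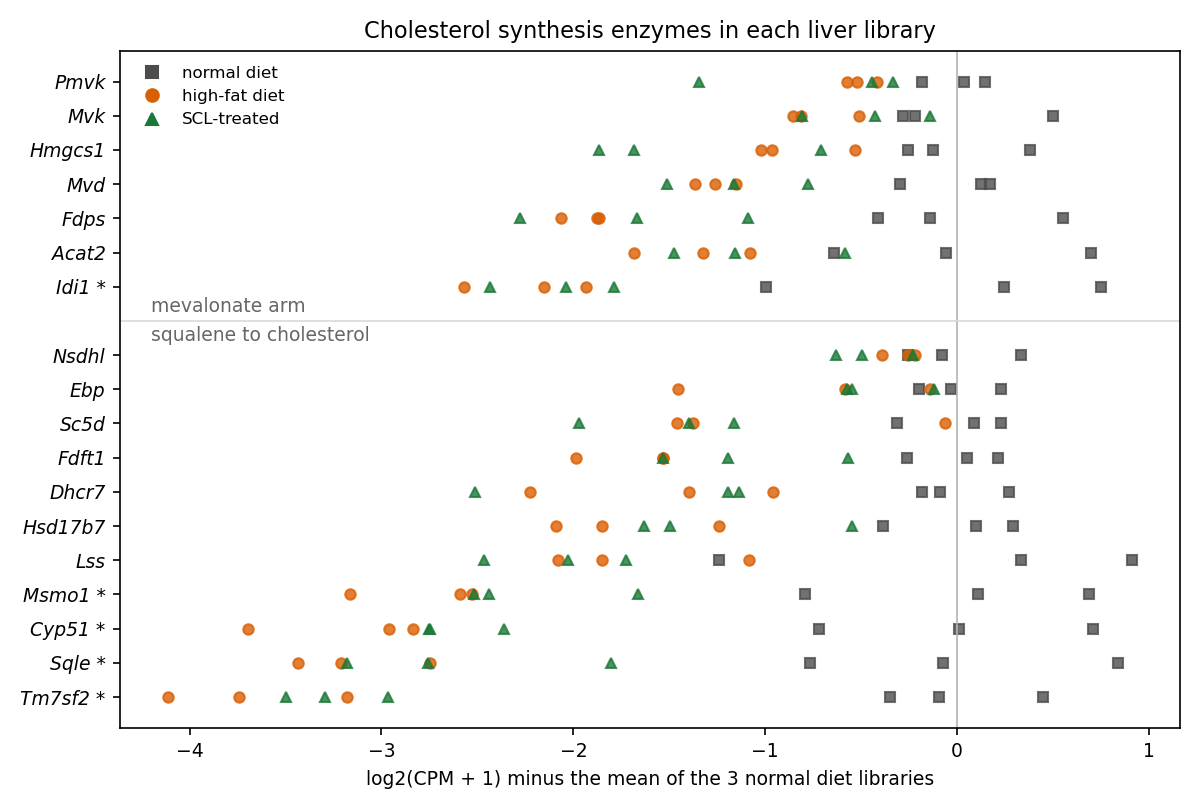
Level of 18 of the 20 cholesterol synthesis enzymes in each library, as log2(CPM + 1) minus the mean of the 3 normal diet libraries (x axis), split into the arm to farnesyl diphosphate and the arm from squalene on. Squares are normal diet, circles high-fat diet, triangles SCL-treated, and an asterisk marks the 5 genes past the adjusted threshold; Tm7sf2 shows the widest distance between the sides.

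Beyond the called genes, the list of cholesterol enzymes was low as a whole. All 20 enzymes had a log2 fold change below 0, as they did under every scaling, tool and left-out library tried, with a median of -1.58 against 0.04 for all genes tested. Of the 20, 13 lay below all normal libraries with no overlap (background 1.72%), and 18 had an unadjusted p under 0.05 (background 2.69%). The list was chosen with the low level of these enzymes in the same libraries known, so the counts are no independent evidence of direction. Summed over the 20, levels were 3333, 2661 and 2033 CPM in normal liver and 845.2 to 1319 CPM in fatty liver.

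In the first arm, 5 of 8 enzymes had no overlap and the median log2 fold change was -1.40. Fdps, the farnesyl diphosphate synthase, came closest to a call. Its levels were 225 CPM in normal diet replicate 1, 139 in replicate 2 and 115 in replicate 3, against 30.8 to 71.4 CPM (median 41.1) in fatty liver, with a log2 fold change of -1.84 (SE 0.29, edgeR adjusted p = 0.086). Mvd, the mevalonate diphosphate decarboxylase, had 6.95, 7.20 and 4.92 CPM against 1.55 to 3.25 CPM (log2 fold change -1.53). Hmgcs1, the cytosolic HMG-CoA synthase at the head of the arm, had 748, 526.4 and 480 CPM against 157 to 396 CPM. Its log2 fold change was -1.08 (edgeR adjusted p = 0.58, DESeq2 adjusted p = 0.12). Pmvk, named after its values were seen, was the remaining member with no overlap.

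In the second arm, 8 of 12 enzymes had no overlap and the median was -1.75. Besides the 4 called, these included Dhcr7, Fdft1 and Hsd17b7, of which the last 2 were named after their values were seen. Dhcr7, the reductase of the final step to cholesterol, had 113, 82.0 and 87.8 CPM in normal and 15.5 to 47.6 CPM in fatty liver (log2 fold change -1.50, SE 0.33, edgeR adjusted p = 0.30). Fdft1, the squalene synthase that commits farnesyl units to sterols, had 141, 101 and 126 CPM against 30.0 to 81.5 CPM, the highest in SCL-treated replicate 3. Nsdhl and Ebp overlapped and were the least lowered, with log2 fold changes of -0.39 and -0.52.

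Among the sensors of the pathway no gene passed the edgeR test. DESeq2 called 78 of all 12041 genes tested and limma-voom 1108, and among the 11 sensors they called 3 and 7. Of these 11 genes for sterol sensing and uptake of low-density lipoprotein, 10 had a log2 fold change below 0, 4 had no overlap, all on the lower side (background 1.72%), and the median was -0.91. Insig1, which holds the sterol factor in the endoplasmic reticulum, had 327, 393 and 187 CPM in normal and 33.0 to 133 CPM (median 77.8) in fatty liver. Its log2 fold change was -1.83 (SE 0.41, edgeR adjusted p = 0.31; DESeq2 adjusted p = 0.0097). Srebf2, which encodes that factor, had 73.8, 56.3 and 42.3 CPM against 20.4 to 36.0 CPM (log2 fold change -1.06, SE 0.25, edgeR adjusted p = 0.34; DESeq2 adjusted p = 0.041). Stard4, a carrier of cholesterol between membranes, had 32.7, 34.9 and 19.5 CPM against 6.50 to 13.9 CPM (log2 fold change -1.55, DESeq2 adjusted p = 0.0026). Insig2 was the other gene with no overlap, with a DESeq2 adjusted p of 0.16. Insig2 and Srebf2 overlapped when libraries were scaled by their totals alone. Among 10 genes for cholesterol efflux and targets of the liver X receptor, Abcg8, part of the pump that moves sterols into bile, was the only one with no overlap, at 4.93, 6.86 and 6.87 CPM against 1.202 to 4.37 CPM.

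**Figure D4:**
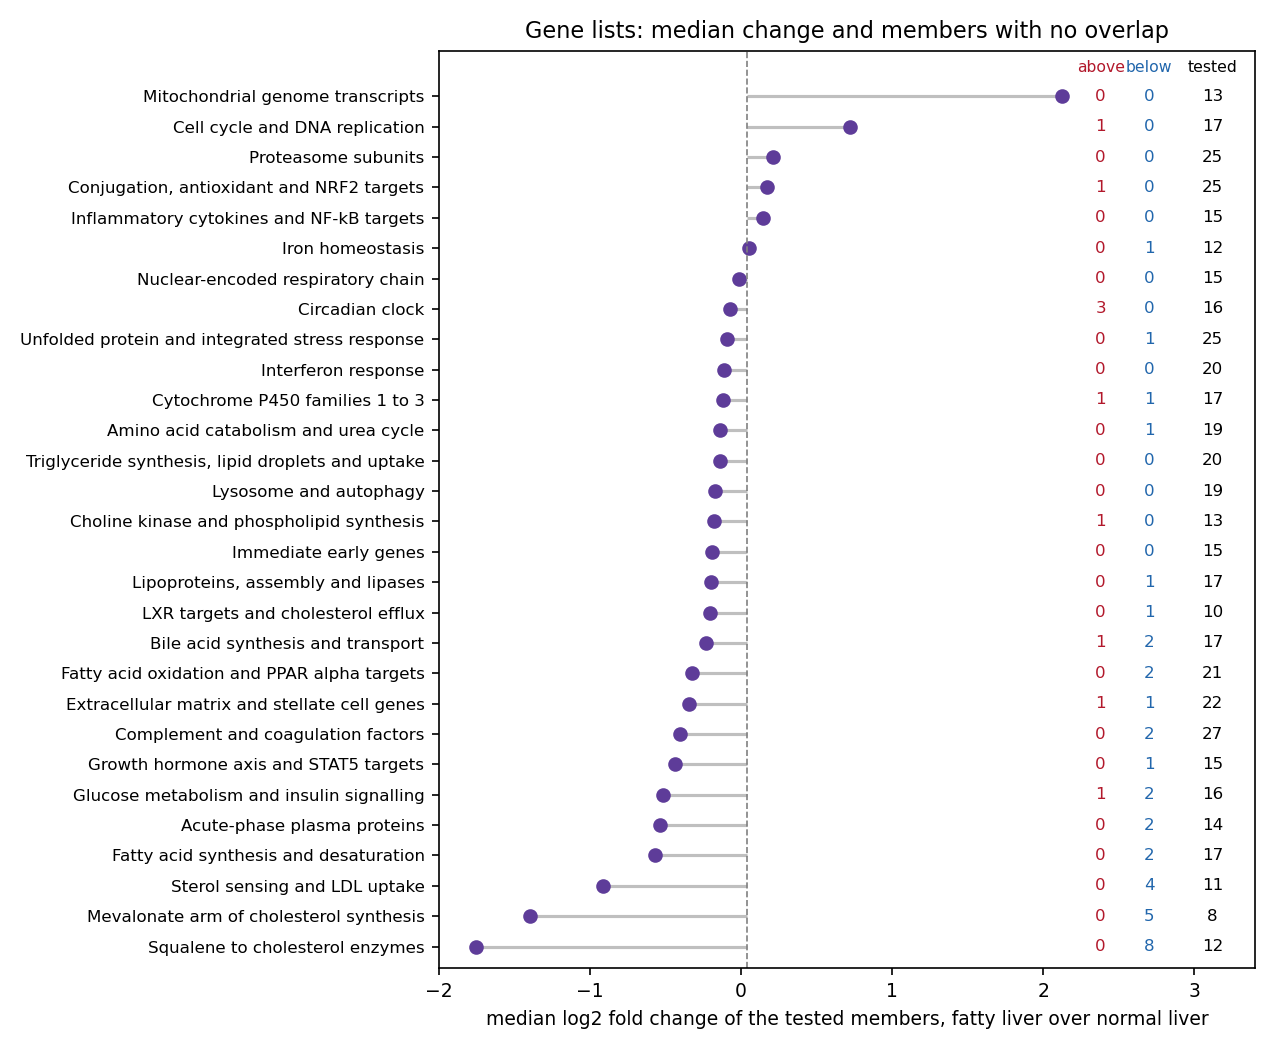
Median log2 fold change of the tested members of 29 pathway lists, fatty over normal liver; the dashed line is the median of all genes, 0.04. Columns at the right give the members with no overlap above (red) and below (blue) and the number tested, with 5 of 8 and 8 of 12 below in the cholesterol lists.

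Fatty acid synthesis showed no common direction. Of 17 genes, 6 had a log2 fold change above 0 and 11 below, and 2 had no overlap, both lower (background 1.72%). At an unadjusted edgeR p under 0.05 there were 2 higher and 5 lower (background 4.59% and 2.69%). Elovl2, which lengthens polyunsaturated fatty acids, had 46.4, 74.7 and 80.0 CPM in normal and 16.8 to 39.0 CPM (median 20.4) in fatty liver. That gave a log2 fold change of -1.51 (SE 0.29, edgeR adjusted p = 0.18). Acss2, which makes acetyl-CoA from acetate in the cytosol, had 40.4, 41.6 and 17.9 CPM against 8.73 to 17.0 CPM, and overlapped under library totals. Scd, the desaturase that makes monounsaturated fatty acids, had the largest positive value of the list, 2.55 (SE 1.01, edgeR adjusted p = 0.65), yet overlapped: fatty libraries ran from 52.1 CPM to 1586 CPM, and normal ones from 73.2 to 119.9 CPM. None of the 20 listed genes for triglyceride synthesis, lipid droplets and fatty acid uptake had no overlap. Genes of these processes outside the list did, named after their values were seen. Gpat3, Agpat3, Abhd5 and Fitm2 lay below in all 6 fatty libraries and Agpat5 above. Gpat3 had 7.07, 8.64 and 4.48 CPM in normal and 0.157 to 3.56 CPM in fatty liver (log2 fold change -2.68, SE 0.73, edgeR adjusted p = 0.54). Agpat3, Fitm2 and Agpat5 overlapped under library totals. Angptl8, a secreted regulator of lipoprotein lipase chosen after its values were seen, had 30.5, 11.1 and 27.4 CPM in normal and 37.5 to 259 CPM (median 83.0) in fatty liver. Under library totals its sides overlapped.

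Genes of fat oxidation and export with no overlap were all lower. Cpt2, the inner mitochondrial carnitine transferase, had 174, 183 and 174 CPM in normal and 89.5 to 154 CPM in fatty liver (log2 fold change -0.54, SE 0.23). Of the 21 oxidation and PPAR alpha genes, 2 had no overlap, and Cpt2 was one of them (background 1.72%). Mttp, which loads lipid onto apolipoprotein B, was the 1 of 17 lipoprotein genes, with a gap below 0.01; it overlapped under library totals and under DESeq2's size factors. Acsf2, an acyl-CoA synthetase of mitochondria chosen after its values were seen, had 26.3, 51.4 and 13.4 CPM against 3.48 to 7.84 CPM. At a log2 fold change of -2.37 (SE 0.39) it had an edgeR adjusted p of 0.11.

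Genes of bile acid metabolism lay on both sides of normal. Cyp7a1, the rate-limiting enzyme that turns cholesterol into bile acids, had 40.8, 24.4 and 24.5 CPM in normal liver and 41.5 to 269 CPM (median 110) in fatty liver. SCL-treated replicate 1, at 41.5 CPM, lay just over normal diet replicate 1, and the order changed when libraries were scaled by their totals or by DESeq2's size factors. The log2 fold change was 2.15 (SE 0.56, edgeR adjusted p = 0.51; DESeq2 adjusted p = 0.0097). Amacr, a racemase used in shortening the bile acid side chain, had 641, 527 and 774 CPM against 204 to 444 CPM (DESeq2 adjusted p = 0.22). Abcb11, the bile salt export pump, was lower with a gap below 0.01 and overlapped under the same 2 scalings. In all, 1 of 17 genes was above (background 1.50%) and 2 were below (background 1.72%) with no overlap.

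Chka, a choline kinase that begins phosphatidylcholine synthesis, had 69.4, 87.7 and 97.6 CPM in normal and 114 to 710 CPM (median 268) in fatty liver. Its log2 fold change was 1.97 (SE 0.61, edgeR adjusted p = 0.60). It was the only one of 13 phospholipid genes with no overlap (background 1.50% above and 1.72% below). The highest values, 710 and 507 CPM, were in high-fat diet replicates 3 and 2, followed by 374 CPM in SCL-treated replicate 2, which were also the 3 libraries with the largest mitochondrial shares. The log2 fold change was 0.67 (SE 0.41) with the log2 mitochondrial share as covariate and 1.42 (SE 0.53) without the 2 libraries over 40%, where the sides still had no overlap.

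**Figure D5:**
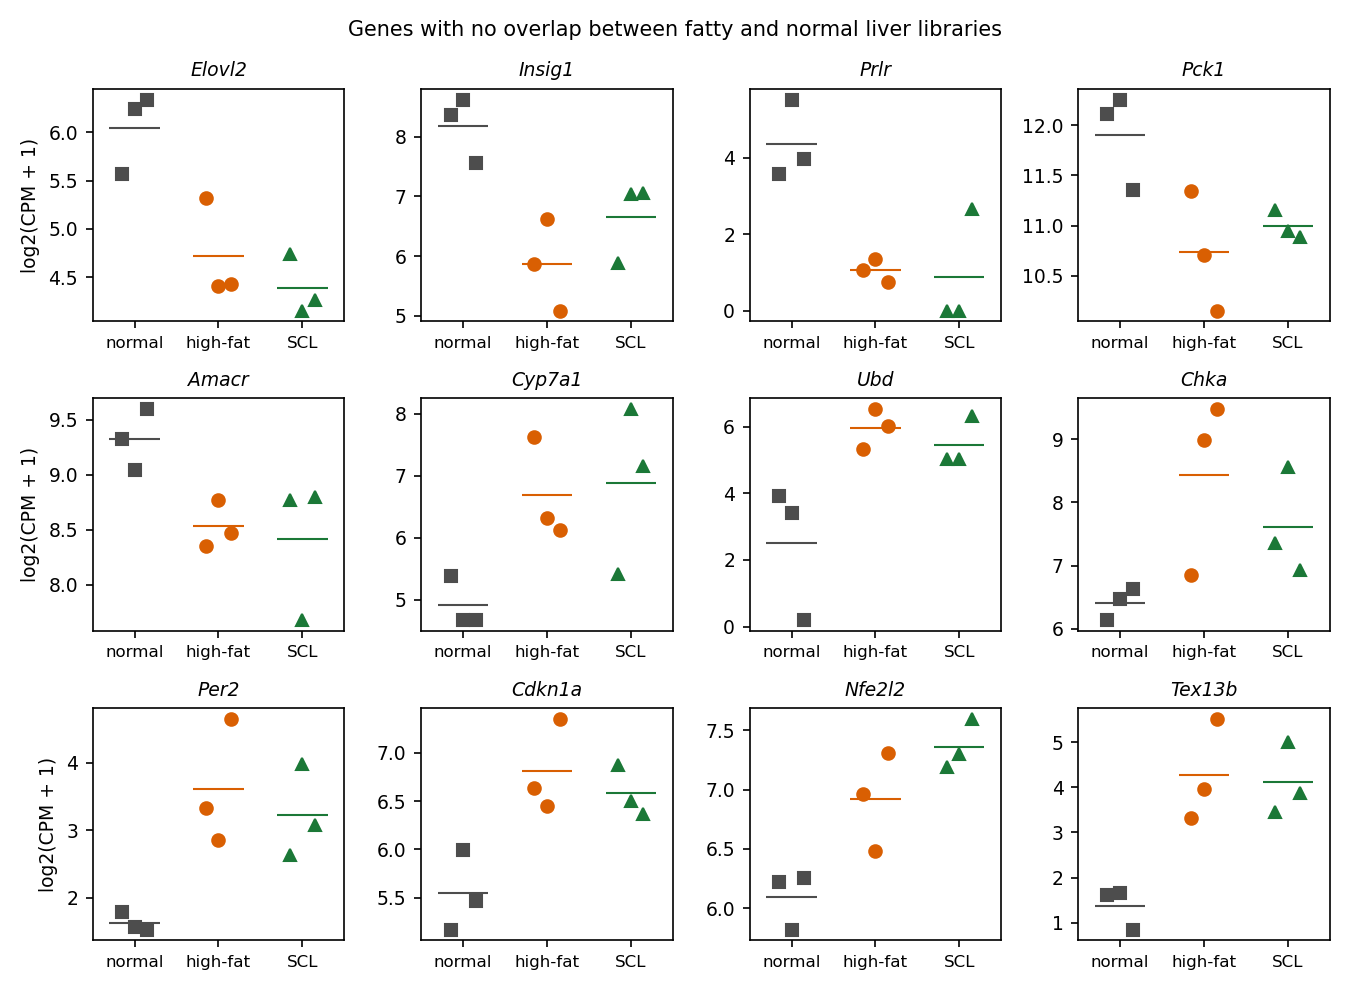
Level of 12 genes with no overlap, as log2(CPM + 1), in each library; squares, circles and triangles are normal diet, high-fat diet and SCL-treated, and bars are group means. Elovl2, Insig1, Prlr, Pck1 and Amacr lie below normal in all 6 fatty libraries and the other 7 genes above, with the nearest libraries of Cyp7a1 and Pck1 almost level.

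Among 16 genes of glucose metabolism and insulin signalling, 1 was above and 2 were below with no overlap (background 1.50% and 1.72%). Pck1, the carboxykinase that controls gluconeogenesis, had 4428, 4890 and 2619 CPM in normal and 1139 to 2602 CPM in fatty liver. Its log2 fold change was -1.04 (SE 0.33, edgeR adjusted p = 0.61, DESeq2 adjusted p = 0.088). High-fat diet replicate 1, at 2602 CPM, was next to normal diet replicate 3, and the 2 sides overlapped under library totals and under DESeq2's size factors. Gys2, the liver glycogen synthase, had 103, 98.2 and 82.9 CPM against 56.3 to 82.6 CPM, and it overlapped when mitochondrial transcripts were removed before scaling.

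Prlr, the prolactin receptor, had the most negative log2 fold change of the named genes, -4.04 (SE 0.95, edgeR adjusted p = 0.34, DESeq2 adjusted p = 0.29). It had 10.97, 45.2 and 14.8 CPM in normal liver, and 0 to 5.35 CPM (median 0.896) in fatty liver. No reads were counted in SCL-treated replicates 1 and 2, where a count of 0 allows up to 3 reads, or 0.204 and 0.291 CPM; this limit covers counting error only. Prlr was the 1 gene with no overlap among 15 of the growth hormone axis (background 1.50% above and 1.72% below).

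Clock genes with no overlap were all higher. They were Per2, Dbp and Npas2, or 3 of 16 (background 1.50%), while 9 of the 16 had a log2 fold change below 0. Per2, a repressor in the core clock loop, had 2.44, 1.96 and 1.88 CPM in normal and 5.17 to 24.1 CPM (median 8.25) in fatty liver. Its log2 fold change was 2.40 (SE 0.52, edgeR adjusted p = 0.29; DESeq2 adjusted p = 0.0010). Dbp and Npas2 had log2 fold changes of 0.84 and 0.82 with gaps of 0.024 and 0.0015. Both overlapped under library totals, and Npas2 also under DESeq2's size factors. The labels used here give no hour of collection for any library.

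Cdkn1a, an inhibitor of cyclin-dependent kinases, had 35.0, 62.8 and 43.2 CPM in normal and 81.3 to 162 CPM (median 93.9) in fatty liver. The log2 fold change was 1.17 (SE 0.30, edgeR adjusted p = 0.48; DESeq2 adjusted p = 0.021). It was the only one of 17 cell cycle genes with no overlap (background 1.50% above and 1.72% below). A log2 fold change above 0 was seen in 13 of the 17, against 6411 of all 12041 genes tested, and the median was 0.72. Nfe2l2, which encodes the antioxidant factor NRF2, had 73.4, 55.5 and 75.5 CPM against 88.2 to 193 CPM (median 151), a log2 fold change of 1.08 (SE 0.27, edgeR adjusted p = 0.48). Nfe2l2 was alone with no overlap among 25 conjugation, antioxidant and NRF2 target genes, against the same background. Outside that list, genes of these kinds with no overlap included Gsta3, Gstm3, Sult2b1 and Pir above and Glyatl2 below, named after their values were seen. Of those named, only Gsta3 overlapped under library totals. Cyp3a23/3a1, a drug-metabolising cytochrome with close copies that may share reads, had 899, 991 and 1298 CPM against 1378 to 2914 CPM, and Cyp2d4 of the same 17-gene list lay below but overlapped under library totals and under DESeq2's size factors.

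Plasma protein genes with no overlap were all lower, with small gaps. Saa4, a constitutive serum amyloid, had 1772, 1593 and 1477 CPM in normal and 462.1 to 1295 CPM in fatty liver. Fgb, the fibrinogen beta chain, had 7024, 6657 and 6210 CPM against 1612 to 5241 CPM, and C1r, a complement protease, had 1124, 926.2 and 848.7 CPM against 309 to 701 CPM. In each of these 3 genes SCL-treated replicate 2 or high-fat diet replicate 3, the libraries over 40% mitochondrial, had the lowest value. With no overlap, 2 of 14 acute-phase genes and 2 of 27 complement and coagulation genes lay below, and 0 above in either list (background 1.72% and 1.50%). Pros1, the anticoagulant protein S, was the other complement and coagulation member, and overlapped under library totals.

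Single members of other lists were also apart (background 1.50% above and 1.72% below). Mat1a, the liver methionine adenosyltransferase, had 2687, 3196 and 2270 CPM in normal and 1720 to 2050 CPM in fatty liver. Lox, which cross-links collagen, had 12.6, 6.97 and 13.1 CPM against 14.1 to 126 CPM, and Col4a1, a basement membrane collagen, had 36.6, 42.9 and 44.6 CPM against 13.7 to 33.7 CPM. These 2 matrix genes lay on opposite sides of normal, and both overlapped under library totals. Trib3, a stress-induced pseudokinase, and Tfr2, an iron sensor, were lower with gaps of 0.14 and 0.03, and Tfr2 overlapped under library totals. No member had no overlap among 15 genes of inflammatory cytokines and NF-kB targets, 20 interferon genes, 15 immediate early genes, 15 nuclear-encoded respiratory chain genes, 19 lysosome genes and 25 proteasome genes.

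On the higher side, gaps were ranked among the 141 of 181 genes with a mean of at least 1 log2 CPM and no predicted-locus name. Of the 8 largest gaps, 7 belonged to genes in no list, and the other was that of Per2. Of all 181 higher genes, 10 were in any list. Tex13b, a gene known from the testis, had 2.07, 2.13 and 0.795 CPM in normal and 8.94 to 45.2 CPM (median 14.2) in fatty liver. With a gap of 1.67, its log2 fold change was 3.61 (SE 0.64, edgeR adjusted p = 0.12; DESeq2 adjusted p = 2.4e-07). Ubd, a ubiquitin-like modifier induced by cytokines, had 13.9, 9.51 and 0.145 CPM against 31.4 to 91.0 CPM, with a gap of 1.12. Its edgeR adjusted p was 0.58 and its DESeq2 adjusted p 0.19. Il7, a growth factor of lymphocytes, had 1.10, 1.50 and 1.30 CPM against 3.13 to 5.03 CPM. Adam8, a membrane metalloprotease of leukocytes, had 0.426, 0.691 and 0.434 CPM against 1.75 to 7.95 CPM. Tmem150c, Pyroxd2 and Mok completed the 8 with the largest gaps, with log2 fold changes of 1.23, 1.12 and 2.69. Pyroxd2, a mitochondrial oxidoreductase, was the most even of them: 46.7 to 61.4 CPM in fatty and 20.4 to 30.8 CPM in normal liver. Of the 8, Tex13b (45.17 and 30.95 CPM), Per2 (24.15 and 14.84) and Mok (7.731 and 6.889) were highest in high-fat diet replicate 3 and SCL-treated replicate 2. Those are the libraries over 40% mitochondrial, and the other genes of the 8 had their highest value elsewhere. Car3, an abundant carbonic anhydrase of male rat liver chosen after its values were seen, had 581, 484 and 624 CPM against 800 to 2043 CPM.

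On the lower side, 179 of 207 genes met the same conditions, and 37 of the 207 were in any list. Of the 8 largest gaps, 6 belonged to cholesterol enzymes and the others were Prlr and Acpp. Acpp, the prostatic acid phosphatase, had 31.9, 30.2 and 31.2 CPM in normal liver and 4.69 to 16.7 CPM (median 10.5) in fatty liver. The normal libraries were close to each other and all fatty ones were below them by a gap of 0.82. Its log2 fold change was -1.52 (SE 0.33, edgeR adjusted p = 0.29; DESeq2 adjusted p = 0.012).

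High-fat diet and SCL-treated libraries are each compared with the same 3 normal libraries, and the choice of genes with no overlap fixes the direction in both, so their values are only set side by side. Over the 181 higher genes the median log2 fold change was 0.93 in high-fat diet and 0.98 in SCL-treated libraries, and over the 207 lower genes it was -0.70 and -0.71. In the edgeR fit of 3 groups the values for Tm7sf2 were -3.82 (SE 0.37, adjusted p = 0.0083) and -3.39 (SE 0.36, adjusted p = 0.0217), and it was the 1 gene called in either contrast with normal diet. For Cyp51 they were -3.29 (SE 0.41) and -2.76 (SE 0.41). By library, the median of the 20 cholesterol enzymes relative to the normal mean was -1.25, -1.47 and -1.86 in high-fat diet replicates 1, 2 and 3 and -1.45, -1.63 and -1.15 in the SCL-treated ones, against 0.36, 0.05 and -0.37 in the normal libraries. Tested directly, SCL-treated against high-fat diet gave no gene past the threshold in edgeR, with 235 of 12041 at an unadjusted p under 0.05, among them 5 of the 388: Adam8, Ednra, RGD1563231, Tmem150c and Tpd52l1, named after their values were seen. For Tm7sf2 the difference was 0.43 (SE 0.34, edgeR adjusted p = 0.9997). In separate edgeR fits that leave out the other fatty group, high-fat diet libraries against normal diet gave 0 called genes, with 636 at an unadjusted p under 0.05 (DESeq2 and limma-voom were not run on this subset), and SCL-treated libraries gave 1, Tm7sf2.

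Markers of cell types were checked beside these results. In bulk tissue, fewer cells of a type and less RNA per cell cannot be told apart. No member of the 10 marker lists had no overlap or passed the edgeR or DESeq2 test. Outside the lists, lymphocyte genes with no overlap included Klrb1c, Klra2, Ctsw, Cd96 and Prkcq above and Cd4 below, named after their values were seen. Cd4 overlapped under library totals and under DESeq2's size factors, and the others named did not. Of all 12041 genes tested limma-voom called 1108, and among the markers it called 6. Of these, 3 were red cell genes, all higher in fatty liver: Alas2, Hba-a2 and Hbb, with limma-voom adjusted p of 0.035, 0.040 and 0.047. The others were Cd3g and Nkg7 of T and NK cells, also higher, and Cd163 of Kupffer cells and macrophages, which was lower. Summed hepatocyte markers, 12 of 12 tested, ran from 154900 to 194400 CPM in normal and 76110 to 239900 CPM in fatty liver. Kupffer cell and macrophage markers, 11 of 12 tested, all had a log2 fold change below 0 and summed to 618.9 to 836.2 CPM in normal and 268.7 to 765.3 CPM in fatty liver. Sums for sinusoidal endothelium, 8 of 9 tested, were 288.3 to 348.2 and 204.5 to 304.1 CPM, and for red cell genes, 4 of 5 tested, 133.6 to 420.0 and 233.4 to 1226 CPM. T and NK cell markers, 6 of 7 tested, summed to 9.26 to 19.4 and 10.04 to 28.1 CPM, and B and plasma cell markers, 5 of 6 tested, to 4.90 to 15.2 and 8.57 to 38.6 CPM. Bile duct markers, 5 of 6 tested, summed to 17.9 to 29.9 and 12.7 to 67.3 CPM, and neutrophil markers, 3 of 6 tested, to 4.75 to 8.07 and 1.20 to 30.8 CPM. Adipocyte markers, 3 of 5 tested, summed to 21.5 to 33.7 and 21.9 to 47.3 CPM, and Cela1, the 1 of 5 pancreas markers tested, had 21.5 to 49.1 and 8.26 to 51.6 CPM. Camp, of neutrophils, had 0 to 4 reads, Cpa1, of the exocrine pancreas, 0 to 3, and Krt7, of bile duct cells, 0 to 17 in any library. The part of cell makeup in the results was not tested.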

How the data were processed

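Per the labels' protocols, liver total RNA was taken up in Trizol and an NEBNext Ultra kit made the libraries. Raw read counts per gene were deposited by the authors in 2 tables, per the file headers, each of which pairs the high-fat diet libraries with 1 of the other groups. DESeq2, without a version, and the mouse build mm9 are named in the submitters' processing notes. Aligner, counter and strand setting: not given in the sources used here, so overlapping genes and close copies are uncertain. The tables held 15929 and 15819 genes; the 15565 in both were joined by symbol, and the high-fat diet counts were the same in each for all of them. The rest took no more than 0.00193% of reads in any library. Within each group, no library was a repeat of another (chi-square per degree of freedom at least 38.5 between replicates). Libraries of different groups were not compared in this way. Libraries were scaled by TMM, and filterByExpr (minimum count 10) chose the genes tested.

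The main test was edgeR 4.0.16 (R 4.3.3), a quasi-likelihood fit with side as the only term, 7 residual degrees of freedom and Benjamini-Hochberg adjusted p under 0.05. Standard errors come from the log2 fold change and F, as its size over the root of F. Depth limits precision for low counts. Named genes are, for each direction, the up to 15 called with no overlap and the smallest p and the 8 with the largest gap, with a mean of at least 1 log2 CPM and no predicted-locus name, and for each of 39 lists up to 4 members with no overlap, or the 2 most abundant where there is none, and at most 2 with the largest fold change that overlap. Members and lists were chosen with earlier results of these data known. Alternatives were DESeq2 1.42.0, limma-voom 3.58.1 with quality weights, other scalings, no filter, a model of 3 groups, a replicate block, the log2 mitochondrial share as covariate, other thresholds and libraries left out. Fits were tested on simulated counts. Promoter windows came from RefSeq GRCr8, to which 96.0% of tested genes matched by symbol or synonym. Python 3.11.15, pandas 2.3.3 and matplotlib 3.10.9 were used. A few single genes are not reported here.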

Additional observations from a re-analysis of the deposited data

Results flagged for a closer look

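On log2(CPM + 1), 1 fatty liver library stood far from the other 5 in 3 of 154 named genes, each time high-fat diet replicate 1. On that scale its gap to its neighbour was over 0.625 of the range. Chance flags about 1 in 20 genes this way. Il1r1, a receptor of interleukin-1, had 43.49 CPM there against 11.76 to 16.53 CPM in the other 5. Nkg7, of cytotoxic lymphocytes, had 1.568 CPM against 4.075 to 6.056 CPM. Psmb6, a proteasome subunit, had 5.646 CPM against 13.46 to 17.82 CPM. None of these genes was without overlap.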

How the results depend on the processing

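All 20 cholesterol enzymes kept a log2 fold change below 0 in every setting run, with a median from -1.80 to -1.21. The 5 called genes were also the 5 called with DESeq2's size factors in edgeR, library totals, mitochondrial transcripts removed before scaling or no filter, and they were among the 78 genes of DESeq2 and the 1108 of limma-voom. Fewer genes were called in the model of 3 groups (4, without Idi1), with a replicate block (2, Cyp51 and Tm7sf2), without the 2 libraries over 40% mitochondrial (1), with high-fat diet (0) or SCL-treated libraries (1) alone, and at an adjusted p under 0.01 (2). Leaving out 1 library gave 2 to 25 called genes and, with fewer libraries that have to be on one side, 436 to 1545 with no overlap. Genes with no overlap numbered 756 without the 2 libraries over 40% mitochondrial, 1236 with high-fat diet and 1789 with SCL-treated libraries alone, where fewer libraries have to be on one side. Under library totals 139 lay above and 232 below, and 215 of the 388 genes remained. With the log2 mitochondrial share as covariate 7 genes were called, 4 higher and 3 lower; the 3 were among the main 5, and Msmo1 and Idi1 were not called. Causes of these differences were not tested. Replicate numbers did not pair the libraries: correlations of deviations between same-numbered libraries ran from -0.431 to 0.651, and the replicate block is therefore a description only.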
